A study of Mus musculus with 6 samples.

Results

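The genes examined were grouped by name as genes of the sodium-potassium pump and are called pump genes below. They are 6 of the 55401 in the deposited table: the beta subunit genes Atp1b1, Atp1b2, Atp1b3 and Atp1b4 and the regulator genes Fxyd1 and Fxyd5. They were picked out by gene name from a family that had been selected on the normalized counts and fold changes of the very contrast described here, so their differences are given as a description and without a p-value. The cells were C2C12 myotubes, a mouse myoblast line fused into multinucleate muscle cells in low-serum horse medium. One group of 3 libraries had received GL2 siRNA, the control, and the other group of 3 libraries SENP7 siRNA, both at 100 pmol for 3 days. Senp7 encodes a protease that removes SUMO from proteins. Every library came from the same line in culture, with neither innervation nor other tissue, and each group had 1 siRNA treatment.

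The sodium-potassium pump is the membrane ATPase that carries sodium out of the cell and potassium in. Its alpha subunit splits ATP and moves the ions, its glycosylated beta subunit folds the complex and takes it to the surface, and a small FXYD protein adjusts how well it binds sodium. In skeletal muscle the pump restores the ion gradients that action potentials run down. Of the beta subunits, the product of Atp1b1 is widespread, that of Atp1b2 was first described as an adhesion molecule on glia and is also the form of fast glycolytic fibres, and that of Atp1b3 is broadly expressed. In placental mammals the product of Atp1b4 lies in the inner nuclear membrane of muscle and is no longer a pump subunit. Atp1b4 is kept among the beta subunit genes and pump genes here by its name only. Fxyd1 encodes phospholemman, the main FXYD protein of heart and skeletal muscle, and Fxyd5 encodes dysadherin, which weakens cell adhesion.

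Upstream sequence was read for 5 of the 6 genes from RefSeq on GRCm38.p6; Atp1b2 had no entry. The 250 bases before the start are shown for Atp1b1 and Fxyd1, the regions before 2 genes that were higher after SENP7 siRNA, and for Atp1b4, a muscle-associated gene whose groups overlapped. They run 5′ to 3′ on the strand of the gene, at chr1:164458356-164458605 (minus strand), chr7:31054854-31055103 (minus) and chrX:38315872-38316121 (plus). Capitals mark E-boxes (CANNTG, the core bound by basic helix-loop-helix factors) and CCAAT boxes (CCAAT, or ATTGG for the other strand).
Atp1b1: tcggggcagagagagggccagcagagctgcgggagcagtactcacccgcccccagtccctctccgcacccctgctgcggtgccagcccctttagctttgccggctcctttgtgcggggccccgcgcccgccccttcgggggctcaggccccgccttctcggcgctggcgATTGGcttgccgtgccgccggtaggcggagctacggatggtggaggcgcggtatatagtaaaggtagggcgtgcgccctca
Fxyd1: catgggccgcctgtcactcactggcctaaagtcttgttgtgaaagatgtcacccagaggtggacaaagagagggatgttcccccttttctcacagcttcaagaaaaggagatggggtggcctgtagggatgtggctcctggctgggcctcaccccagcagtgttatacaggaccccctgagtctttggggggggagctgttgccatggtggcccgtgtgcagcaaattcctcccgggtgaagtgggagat
Atp1b4: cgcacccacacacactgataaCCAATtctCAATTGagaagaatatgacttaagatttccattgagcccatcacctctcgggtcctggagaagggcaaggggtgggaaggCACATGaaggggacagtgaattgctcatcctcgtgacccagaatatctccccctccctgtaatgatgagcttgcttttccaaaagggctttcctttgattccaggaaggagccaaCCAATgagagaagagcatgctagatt

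Neither the Atp1b1 nor the Fxyd1 stretch held an E-box, whereas 66.2% of the 32851 RefSeq windows of the same length held at least 1. The Atp1b4 stretch held 2, CAATTG at 221 bases and CACATG at 141 bases before the start, counted from the first base of the motif. Atp1b3 has 2 RefSeq starts, and each was preceded by 1 E-box, CACCTG at 153 bases before the one and CACGTG at 221 bases before the other. CCAAT boxes, present in 33.8% of windows, were found at 81 bases before the Atp1b1 start and at 229 and 26 bases before the Atp1b4 start. None of these stretches held CAGCTG (in 13.0% of windows), TATAAA (12.4%), the MEF2 motif (2.92%) or the CArG box (1.47%), all searched on both strands, with CAGCTG being 1 form of CANNTG. The same held for Fxyd5, which was lower after SENP7 siRNA and of which 100 bases lay outside its own exons. Those bases also held no E-box and no CCAAT box, in a stretch shorter than the windows counted. The stretch (chr7:31042482-31042581) ended 150 bases before the Fxyd5 start. It lay partly inside the annotated Fxyd7 gene (chr7:31042513-31051467), on the same strand. The Fxyd1 start is the one in RefSeq and lies inside the annotated Fxyd1 gene, which has longer transcripts.

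Between 25223218 and 30865945 reads per library were counted on genes. Senp7 itself stood at 607.2 ± 46.9 normalized counts (SD, n = 3) in control and 300.3 ± 40.2 in SENP7 libraries (log2 fold change -1.02 ± 0.11 SE, limma adjusted p = 0.000428). Control replicate 3 lay nearer to the SENP7 libraries than the other controls did, at -19.1 on a first component (64.4% of the variance) where controls 1 and 2 were at -36.7 and -33.3 and the SENP7 libraries between 27.7 and 32.5. Of all 14668 genes tested, 57.0% had control replicate 3 outside the range of the other controls on the side of the SENP7 mean, and so did 5 of the 6 pump genes, all but Fxyd5. Its part in the results was not tested; values without it are given where they differ most. Muscle markers were abundant in every library, with the 10 listed genes (among them Myog, Acta1 and Ttn) summing to 650855 to 680210 normalized counts in control and 711537 to 796109 in SENP7 libraries. Among these 10, Mymk, the fusion factor, and Ckm, muscle creatine kinase, rose, slow troponin T gene Tnnt1 fell and 7 did not pass. Thus 30% were called, beside 20.9% of all genes. Of those that did not pass, Myh3 averaged 179668 in control and 228223 in SENP7 libraries (limma adjusted p = 0.0635). Myh3 passed in 5 of 15 other settings. Des went the other way, from 112839 to 98027 (limma adjusted p = 0.242), and passed in 1 of 15. Of 9 markers of proliferating or undifferentiated cells, Pax7, Id1 and Id3 rose (limma adjusted p from 0.0105 to 0.0159), 3 of 9 beside 10.2% of all genes. The cycling genes Mki67, Top2a, Cdk1, Ccna2 and Ccnb1 and the myoblast factor Myf5 did not pass, with log2 fold changes from -0.31 (Ccnb1) to 0.03 (Mki67); Ccnb1 passed as lower with no filter on low counts (0.0499). The summed level of the 9 was 8124 to 10841 in control and 8980 to 10262 in SENP7 libraries. Without control replicate 2 the calls of Tnnt1, Pax7, Id1 and Id3 were lost (limma adjusted p from 0.0534 to 0.0793), that of Id1 also without SENP7 replicate 2 (0.0502) or 3 (0.0518) and that of Id3 also with no filter on low counts (0.143). In cultures, more RNA per cell and a larger share of cells of 1 type cannot be told apart.

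The 6 genes differed in direction. After SENP7 siRNA, Atp1b2 was about an order of magnitude higher, Atp1b1 and Fxyd1 were higher by less, Fxyd5 was lower, and Atp1b3 and Atp1b4 overlapped between the groups. All 6 passed the filter on low values. Atp1b4 did so through the SENP7 libraries and control replicate 3, as controls 1 and 2 were below the filter level of 10. In the fit over all genes, 20.9% of genes passed the threshold (10.2% higher and 10.7% lower in SENP7 libraries), and of the 6 genes 2 passed as higher, Atp1b1 and Atp1b2, and 1 as lower, Fxyd5. Groups did not overlap for 39.6% of all genes (19.3% higher and 20.4% lower), and for 3 pump genes higher and 1 lower. Because the genes were chosen from this contrast, nothing is read from these counts. The median log2 difference of the 6 was 0.53, beside 0.00 for all genes tested, whose 5th and 95th percentiles were -0.60 and 0.73.

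**Figure D1:**
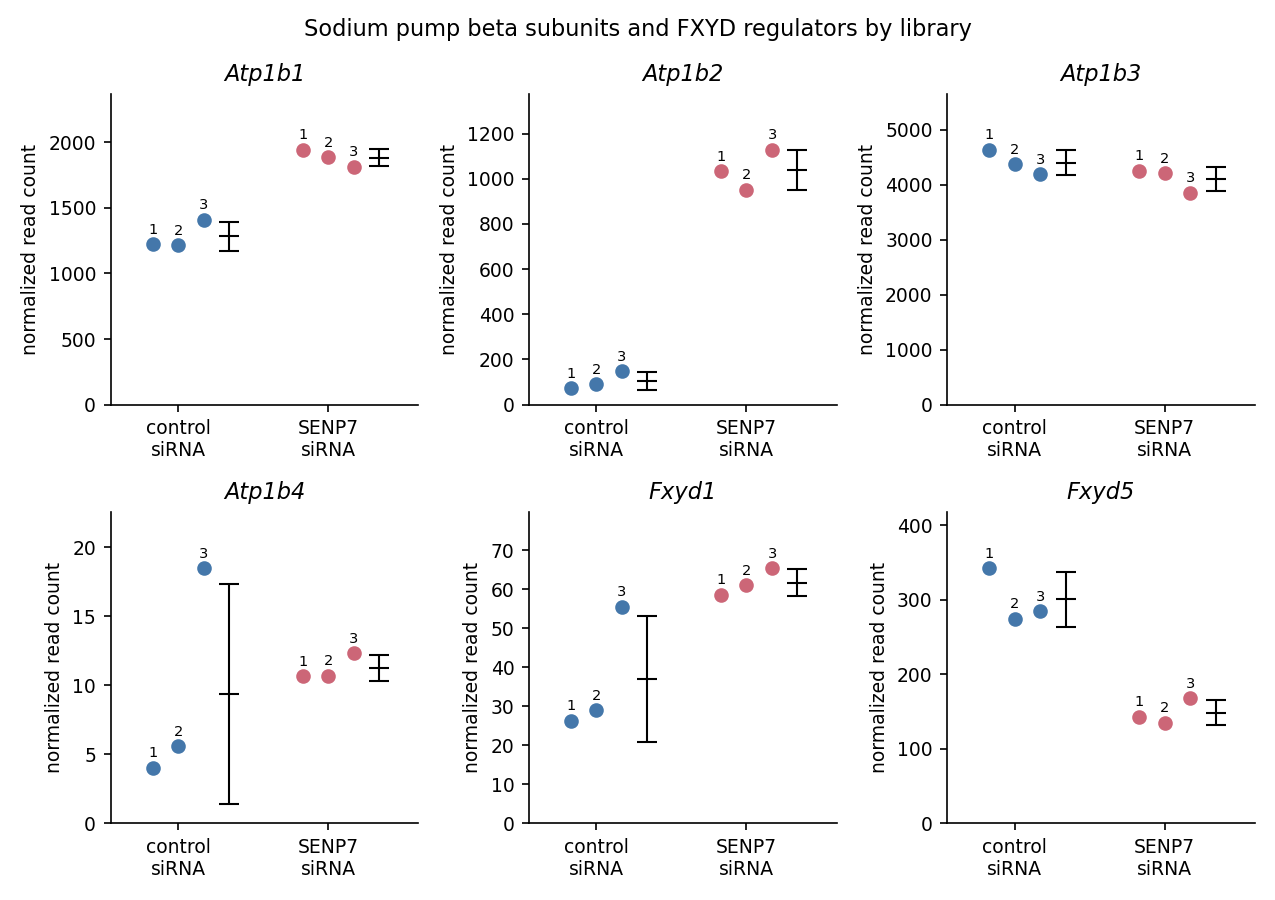
Normalized read counts of the 6 genes, 1 panel per gene with its own axis from 0; each point is 1 library with its replicate number, and the bars to the right of each group give the mean and SD (n = 3). The SENP7 libraries lie above every control library for Atp1b1, Atp1b2 and Fxyd1 and below them for Fxyd5, and control replicate 3 is the highest of all for Atp1b4.

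Atp1b2 (ENSMUSG00000041329.13, chr11:69599736-69605942, minus strand, 4085 bases of exon, GRCm38) differed most. The control libraries, in the order of replicates 1, 2 and 3, had 73.6, 90.1 and 149 normalized counts, and the SENP7 libraries 1034, 952 and 1129 in the same order. The lowest SENP7 library was far above the highest control, control replicate 3. The mean went from 104 ± 39.5 to 1038 ± 88.6 (SD, n = 3), a 9.97-fold ratio of means and a log2 difference of 3.37 ± 0.22 (SE). Without control replicate 3 the ratio was 12.7-fold. The controls together held 307 reads of it and the SENP7 libraries 3247. No exon of another annotated gene overlapped those of Atp1b2.

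Atp1b1 (ENSMUSG00000026576.12, chr1:164437109-164458355, minus strand, 3081 bases of exon) was higher by a smaller step. It stood at 1224, 1213 and 1408 normalized counts in control replicates 1, 2 and 3 and at 1942, 1883 and 1812 in the SENP7 libraries in the same order. The groups did not overlap, and control replicate 3 was the control nearest to the SENP7 libraries. The mean was 1282 ± 110 in control and 1879 ± 65.1 in SENP7 libraries, 1.47-fold, with a log2 difference of 0.55 ± 0.07. Exons of Nme7, a gene on the opposite strand, cover 18.7% of its exon length, and Nme7 had a log2 fold change of -0.19 (limma adjusted p = 0.16, 0.0716 to 0.417 over 15 other settings).

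Atp1b3 (ENSMUSG00000032412.8, chr9:96332655-96364442, minus strand, 2389 bases of exon) was the most abundant beta subunit transcript. Control replicates 1, 2 and 3 had 4638, 4375 and 4194 normalized counts, and the SENP7 libraries 4255, 4208 and 3852. The groups overlapped. The means of 4402 ± 223 and 4105 ± 220 gave a ratio of 0.932 and a log2 difference of -0.10 ± 0.07.

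Atp1b4 (ENSMUSG00000016327.9, chrX:38316184-38336769, plus strand, 4201 bases of exon) was near the limit of detection, with 4 to 19 reads in a library. Normalized counts were 4.03, 5.56 and 18.5 in control replicates 1, 2 and 3 and 10.6, 10.7 and 12.3 in the SENP7 libraries. Control replicate 3 was above all SENP7 libraries and the other controls were below them. The means of 9.36 ± 7.94 and 11.2 ± 0.949 gave a 1.20-fold ratio, which became 2.34-fold without control replicate 3. The log2 difference, taken between means of log values, was 0.50 ± 0.49, about as large as its error. It was 0.23 to 0.26 in edgeR and DESeq2 on recovered reads and with quantile normalization.

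Division by exon length allows the beta subunit genes to be compared with each other. Per kb of exon, control libraries held 1843 ± 93.5 normalized counts of Atp1b3, 416 ± 35.7 of Atp1b1, 25.5 ± 9.68 of Atp1b2 and 2.23 ± 1.89 of Atp1b4 (SD, n = 3). In SENP7 libraries the levels were 1718 ± 92.3, 610 ± 21.1, 254 ± 21.7 and 2.67 ± 0.226. The order was thus the same in both groups, and the ranges of mean ± SD of neighbours in it did not overlap in either group. Atp1b2 made up 0.764%, 0.981% and 1.62% of the summed beta subunit level in control replicates 1, 2 and 3 and 9.49%, 8.94% and 11.1% in the SENP7 libraries. The share of Atp1b1 was 18.2% ± 1.83 and 23.6% ± 0.147, and that of Atp1b3 80.6% ± 2.35 and 66.4% ± 1.29. Atp1b4 was at 0.0983% ± 0.0844 and 0.104% ± 0.0127.

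Per kb, the ratio of Atp1b2 to Atp1b1 was 0.0604 ± 0.0176 in control and 0.418 ± 0.0464 in SENP7 libraries, and that of Atp1b3 to Atp1b1 was 4.46 ± 0.55 and 2.82 ± 0.0709. The level summed over the 4 beta genes changed less than its make-up, from 2287 ± 61.7 to 2585 ± 95.8 normalized counts per kb, a ratio of 1.13. That sum was 2358, 2248 and 2254 in the controls and 2667, 2608 and 2480 in the SENP7 libraries. Its groups did not overlap.

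**Figure D2:**
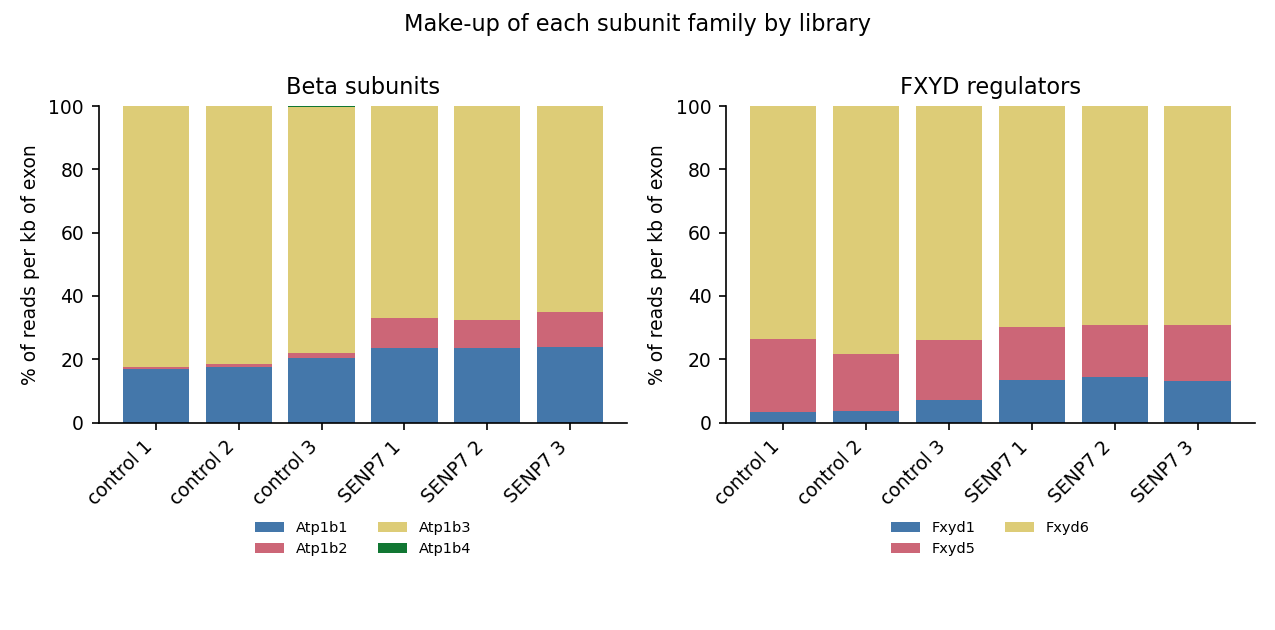
Stacked bars of the percentage that each gene contributes, per kb of exon, to its family in each of the 6 libraries: the 4 beta subunit genes and the 3 FXYD genes with more than 1 read. The Atp1b2 band is 0.764% to 1.62% in control and 8.94% to 11.1% in SENP7 libraries, while the Atp1b3 band narrows.

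Glial and neuronal markers were examined beside Atp1b2, since its product is known from glia. Of 10 such markers, Aqp4, Hepacam, Snap25 and Rbfox3 were at 0 in every library, a count that allows up to 3 reads in each. Gfap had 6 control and 9 SENP7 reads, and Mlc1 had 1 in each group. Of the 10, 4 met the filter and were tested, and 2 of these passed as higher, beside 10.2% of all genes. These were S100b (from 5.69 to 17.3 normalized counts) and Slc1a3, a glutamate transporter (175 to 376), with limma adjusted p of 0.0269 and 0.0126. S100b averaged below the filter level of 10 in control. It was thus tested mainly through the SENP7 libraries, where it was higher, and nothing is read from the count of 2. Syp and Mbp did not pass, with log2 fold changes of -0.22 and -0.25 (limma adjusted p = 0.675 and 0.632). S100b did not pass without control replicate 1 or 2 or any 1 SENP7 replicate (0.0774 to 0.103) or in DESeq2 (0.0523), and Slc1a3 lost its call if control replicate 2 (0.0658), SENP7 replicate 2 (0.0533) or replicate 3 (0.0519) of SENP7 was left out, or with no filter on low counts (0.111). The list summed to 157 to 300 normalized counts in control and 346 to 491 in SENP7 libraries.

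The FXYD members moved in opposite directions. Fxyd1 (ENSMUSG00000036570.14, chr7:31051678-31057199, minus strand, 2186 bases of exon) had 26.2, 28.9 and 55.4 normalized counts in control replicates 1, 2 and 3 and 58.6, 61.0 and 65.4 in the SENP7 libraries. The groups did not overlap, but control replicate 3 was close to SENP7 replicate 1. The mean was 36.9 ± 16.2 in control and 61.6 ± 3.45 in SENP7 libraries, 1.67-fold, and 2.24-fold without control replicate 3. The log2 difference was 0.80 ± 0.27, from 26 to 69 reads in a library.

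Fxyd5 (ENSMUSG00000009687.14, chr7:31032722-31042481, minus strand, 4192 bases of exon) had 343, 275 and 285 normalized counts in control replicates 1, 2 and 3, against 143, 135 and 168 after SENP7 siRNA. Every SENP7 library was below every control. The mean was 301 ± 36.6 in control and 148 ± 17.1 in SENP7 libraries, 2.03-fold lower, with a log2 difference of -1.01 ± 0.13. Mir7050, a microRNA gene on the same strand, overlaps 1.43% of its exon length.

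Per kb of exon, Fxyd5 was 4.82 ± 2.07 times the level of Fxyd1 in control and 1.25 ± 0.0938 times in SENP7 libraries. The single values were 6.82, 4.95 and 2.68 in the controls and 1.27, 1.15 and 1.34 in the SENP7 libraries. Control replicate 3 was again the control nearest to them. Both genes lie in a run of 4 FXYD genes on the minus strand of chromosome 7 that spans 44.0 kb (chr7:31032722-31076704). In genomic order these are Fxyd5, Fxyd7, Fxyd1 and Fxyd3. Fxyd7, a form of the brain, and Fxyd3 had no read in any of the 6 libraries, although Fxyd7 lies between the expressed pair.

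**Figure D3:**
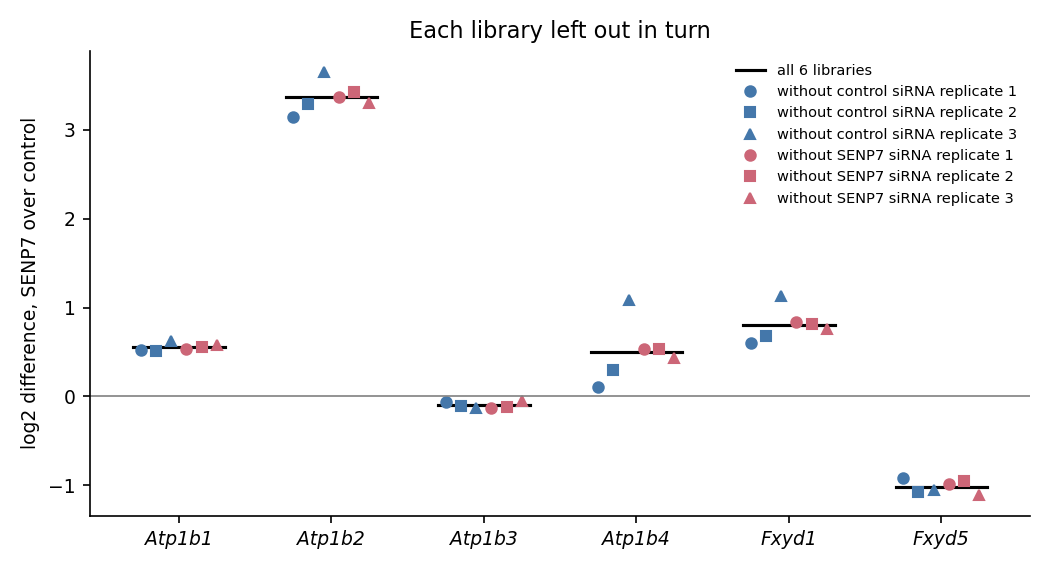
Log2 difference of SENP7 over control siRNA for each of the 6 genes with all libraries (black line) and with each library left out in turn (symbols by library). The direction is the same in all cases. Omission of control replicate 3 gives the highest value for Atp1b1 (0.62), Atp1b2 (3.65), Atp1b4 (1.09) and Fxyd1 (1.13).

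The authors' deposited table gave log2 fold changes of 2.82 for Atp1b2, 0.53 for Atp1b1, 0.49 for Fxyd1, 0.08 for Atp1b4, -0.10 for Atp1b3 and -0.91 for Fxyd5. The signs were those of the values above, and the authors' numbers were nearer to 0 for all 6 genes.

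The remaining FXYD genes were taken as a list of 5, and 1 of these was abundant enough to test. Fxyd6, which encodes phosphohippolin, was the most abundant FXYD transcript, and it fell from 1111 ± 60.9 to 593 ± 49.5 normalized counts (log2 fold change -0.91 ± 0.08, limma adjusted p = 0.000163). Its libraries had 1067, 1180 and 1085 in control and 577, 554 and 649 after SENP7 siRNA. Fxyd6 is an FXYD gene like 2 of the members, and its list was chosen with results of these data known. Its p-value is not independent of that choice. Fxyd2, the gamma subunit of kidney, had 1 read in all, in SENP7 replicate 3, and Fxyd3, Fxyd4 and Fxyd7 had none, which allows up to 3 reads in each library. The level summed over Fxyd1, Fxyd5 and Fxyd6 per kb was 359 ± 6.45 in control and 208 ± 17.5 in SENP7 libraries, a ratio of 0.579. Within it, the share of Fxyd1 went from 4.70% ± 2.08 to 13.6% ± 0.638, that of Fxyd5 from 20.0% ± 2.75 to 16.99% ± 0.532 and that of Fxyd6 from 75.3% ± 2.78 to 69.4% ± 0.294.

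Genes for assembly, membrane anchoring and regulation of the pump formed a list of 25, of which 23 were in the table and 20 were tested. There were 5 that rose, 4 that fell and 11 that did not pass, so 45% were called beside 20.9% of all genes, with a median log2 fold change of 0.03. Prkaca, the catalytic subunit of the kinase that phosphorylates phospholemman, rose from 6895 ± 459 to 11745 ± 192 normalized counts (log2 fold change 0.77 ± 0.07, limma adjusted p = 0.000163). The membrane skeleton genes Ank3 (1063 ± 66.0 to 1493 ± 125) and Add3 (680 ± 61.4 to 1005 ± 110) rose. Add2, another adducin, fell from 145 ± 47.0 to 35.5 ± 7.06 (log2 fold change -1.96 ± 0.27, limma adjusted p = 0.00149). Src, a kinase that can bind the pump, fell from 1381 ± 12.1 to 978 ± 33.5. Smad7, whose expression the Atp1b4 product is known to modulate, fell from 776 ± 36.8 to 511 ± 84.2. The limma adjusted p of Ank3, Add3, Src and Smad7 lay between 0.000588 and 0.00532. Snw1, the transcriptional co-regulator that binds the Atp1b4 product, did not pass (log2 fold change -0.11, limma adjusted p = 0.212). Wrb, part of the receptor that inserts tail-anchored proteins, Ank2 and Sgk1 were the other 3 that passed, and each was lost when 2 or 3 of the single libraries were left out. The count of rises was 3 without SENP7 replicate 1 and 7 without control replicate 3.

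Routes by which sodium enters the cell were listed as 30 genes, of which 25 were tested. There were 3 that rose, 5 that fell and 17 that did not pass, so 32% were called beside 20.9% of all genes. Slc8a3, a sodium-calcium exchanger of muscle, had 70.6, 76.8 and 107 normalized counts in control replicates 1, 2 and 3, against 182, 160 and 158 after SENP7 siRNA, with no overlap. Its mean rose from 84.8 ± 19.5 to 167 ± 13.1 (log2 fold change 0.99 ± 0.17, limma adjusted p = 0.00418). Its relative Slc8a1 rose from 410 ± 123 to 679 ± 81.1 (limma adjusted p = 0.0204), and this call was lost without control replicate 2 (0.091), without any 1 SENP7 replicate (0.0582 to 0.0784) and with no filter on low counts (0.111).

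Among the falls, the sodium-coupled phosphate transporter Slc20a1 went from 5511 ± 300 to 3827 ± 330 (log2 fold change -0.53 ± 0.08, limma adjusted p = 0.00194), with 13.1% of its exon length under genes of the opposite strand. The sodium-proton exchanger Slc9a5 fell from 651 ± 46.7 to 508 ± 16.1 and the neutral amino acid transporter Slc1a4 from 1843 ± 126 to 1473 ± 82.5, with limma adjusted p of 0.0121 and 0.0133. Slc9a5 did not pass without SENP7 replicate 1 (0.0616) or control replicate 2 (0.0602), and Slc1a4 without SENP7 replicate 1 (0.0631) or 2 (0.0681). Slc38a2, another neutral amino acid transporter, fell from 13362 ± 495 to 11345 ± 423 (limma adjusted p = 0.0327), a call lost without SENP7 replicate 1 (0.123) or 2 (0.156) or control replicate 2 (0.112) and with quantile normalization (0.0768). The other 2 that passed were Slc12a2, a sodium-potassium-chloride cotransporter that rose (log2 fold change 0.31, limma adjusted p = 0.0354), and the exchanger Slc9a2, which fell (-0.31, limma adjusted p = 0.0403). Slc12a2 was lost without any 1 library but control replicate 3 (0.0702 to 0.127), and Slc9a2 without SENP7 replicate 1 (0.134) or 2 (0.155) or control replicate 2 (0.154), in DESeq2 (0.0531) and with no filter on low counts (0.0518). Scn4a, the main sodium channel of muscle, did not pass with all libraries (log2 fold change 0.26, limma adjusted p = 0.263), but did without control replicate 3 (0.46, 0.00153). The count of rises was 1 without SENP7 replicate 1 or 2 or control replicate 2, and 7 without control replicate 3. The count of falls was 1 without SENP7 replicate 1 and 2 without SENP7 replicate 2 or control replicate 2.

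**Figure D4:**
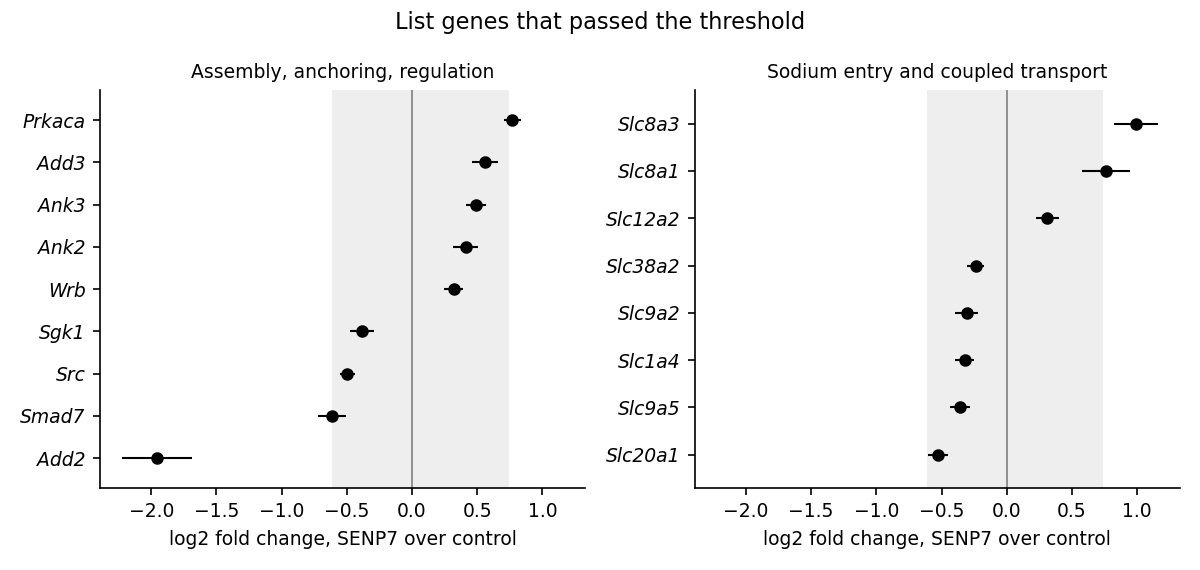
Log2 fold change of SENP7 over control siRNA with its SE for each gene of the assembly and sodium entry lists that passed the threshold of 0.05 after adjustment over all genes; the grey band spans the 5th to 95th percentile of all genes (-0.60 to 0.73). Slc8a3 lies farthest above the band and Add2 farthest below it.

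Genes near the beta subunit genes were looked at within 100 kb, a window chosen after their values were seen. Around Atp1b2, 15 of 24 neighbouring genes were tested and 0 passed in limma, 0 had an unadjusted p under 0.05, and 0 passed in edgeR or DESeq2 on recovered reads. Their log2 fold changes ran from -0.23 to 0.39. Eif4a1, a translation factor gene among them, passed when control replicate 3 was left out (0.00486). The only neighbour tested around Atp1b3 was Tfdp2 (log2 fold change 0.25, limma adjusted p = 0.138), which had an unadjusted p under 0.05 and passed without control replicate 3 (0.00297) and with the replicate block (0.0181). Around Atp1b4 the only one was Lamp2 (0.11, limma adjusted p = 0.268).

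Over the 6 libraries, the transcripts with the most similar log2 profile were sought among 11937 genes with a mean of at least 50 normalized counts, as a description. For Atp1b2 they were Ncoa1, a nuclear receptor coactivator (Pearson r = 0.999), Stim1, a calcium sensor (0.999), and Morc3 (0.999), but none of these spanned a like range, since Ncoa1 went from 755 to 1349. For Atp1b1 they were Slc25a15, a mitochondrial ornithine carrier (0.999), E2f2, a transcription factor (0.998), and Mpp5, a polarity scaffold (0.997). For Fxyd5 they were Dok1, an adaptor of tyrosine kinases (0.996), Pitrm1, a mitochondrial peptidase (0.995), and Mgat5, a glycosyltransferase (0.995). For Atp1b3 they were Polr1e, a subunit of RNA polymerase I (0.994), Rer1, a Golgi retrieval receptor (0.990), and the lamin gene Lmna (0.990). All these profiles share the 6 libraries and the split into 2 groups, and 558 genes reached an r of 0.95 with Atp1b2 and 424 with Atp1b1. Fxyd1 and Atp1b4 were below the mean of 50 and were not ranked.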

How the data were processed

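Polyadenylated RNA of 6 C2C12 libraries was sequenced in 1 pooled run. The submitters' processing notes name STAR 2.6.1d, featureCounts 1.6.4, DESeq2, Trim Galore 0.6.4 and bcl2fastq, with the build GRCm38.p6. How counting treated strand, and which annotation release and DESeq2 version were used, is not given in the sources used here. Deposited values are a signal per gene, the authors' read count divided by 1 factor per library; in every library 100% of positive values were whole reads within 0.1. The deposited log2 fold change is the authors' own.

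Where at least 3 libraries reached a normalized count of 10, limma 3.58.1 (R 4.3.3; robust, with a trend) was fitted on log2(normalized count + 1), and log2 differences are on that scale; with a larger pseudocount those of low genes come out smaller (for Atp1b4, 0.54 at 0.5 and 0.31 at 5). Tests were two-sided, with Benjamini-Hochberg adjustment over 14668 genes and a threshold of 0.05. The design has no covariate. P-values set the difference between groups against the spread among these libraries within a group, and speak for these libraries only. Ratios are of mean normalized counts, and precision follows from the reads given. The members, lists and tests were chosen with earlier results of these data known. Named were Senp7, every member, all other FXYD genes, up to 6 passing genes per other list with the smallest adjusted p, and the 3 most similar profiles per member; Wrb, Ank2, Sgk1, Snw1, Slc12a2, Slc9a2, Scn4a and the neighbours were named after their values were seen. Some listed genes are not reported here. Gene names were the deposited ones, with blanks filled by identifier where a name was known. Identifiers were compared with GENCODE M21, whose coordinates were the same for all 54349 shared. Exon overlaps were read from the deposited exon coordinates, and M21 exons were used to mark upstream bases lying in a gene's own exons. Other settings were a replicate block, edgeR 4.0.16 (with the deposited scaling or TMM) and DESeq2 1.42.0 on recovered reads, quantile normalization, other filters, pseudocounts of 0.5 and 5, a threshold of 0.01, and each library left out.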

Additional observations from a re-analysis of the deposited data

How the results depend on the processing

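The log2 differences of all 6 pump genes kept their sign under every alternative that gave a value; Atp1b4 and Fxyd1 had none with a mean of at least 50. With each library left out they were 0.52 to 0.62 for Atp1b1, 3.15 to 3.65 for Atp1b2, -0.14 to -0.06 for Atp1b3, 0.11 to 1.09 for Atp1b4, 0.61 to 1.13 for Fxyd1 and -1.10 to -0.92 for Fxyd5. In the same way the genes passing over the whole table ranged from 805 higher (without SENP7 replicate 2) and 754 lower (without control replicate 2) to 2289 higher and 2413 lower (both without control replicate 3), those for assembly and regulation from 3 to 7 higher and 3 to 5 lower and those for sodium entry from 1 to 7 higher and 1 to 6 lower; Fxyd6 passed as lower throughout. At a threshold of 0.01, 718 genes were higher and 680 lower, with 3 higher for assembly, 1 higher and 1 lower for sodium entry. The replicate block gave 2052 higher and 2123 lower genes in all and 6 higher and 7 lower for sodium entry. Deviations of same-numbered libraries correlated at 0.130, 0.0624 and 0.251. Those of other-numbered libraries lay between -0.220 (control 1 with SENP7 3) and 0.141 (control 1 with SENP7 2). The labels name no pairing, so the main fit had none. Whether the numbers mark pairs cannot be told from these few values. Without division by length, Atp1b1, Atp1b2 and Atp1b3 made up 22.1%, 1.80% and 75.9% of beta subunit counts in control and 26.7%, 14.8% and 58.3% in SENP7 libraries. Atp1b4 made up 0.162% ± 0.138 in control and 0.160% ± 0.0184 in SENP7 libraries. The sign of its small difference in share was thus the opposite of that per kb. Depth limits Atp1b4 (4 to 19 reads a library) and Fxyd1 (26 to 69). The cause of these differences was not tested.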
